A study of Mus musculus and Homo sapiens
Mus musculus with 14 samples.

Results

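Cadherins and protocadherins are transmembrane proteins with repeated extracellular cadherin domains, and their genes were followed here through the cell layers of the mouse retina and through 2 groups of amacrine cells. The members were all genes whose symbols begin with Cdh or Pcdh and continue with the number or the cluster letter and number of a family member, which gave 89 of the 24460 genes listed for the layers and 81 of the 18415 listed for the amacrine cells. The rule reads the symbols alone, but the family was picked with earlier results of these data known. They comprise 21 Cdh genes and 68 Pcdh genes, of which 56 are clustered (13 alpha, 22 beta and 21 gamma) and 12 stand alone. More distant relatives, such as the Fat, Celsr and Cdhr genes, do not carry these symbols and are given only for comparison.

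The libraries were made with Light-Seq, in which cDNA is synthesized inside a fixed tissue section and a DNA barcode is crosslinked by light to the cDNA of chosen cells before sequencing. All retinas came from wild-type (WT) CD1 IGS mice in the third postnatal week, with no treatment and no engineered allele in any group. In 4 sections a barcode each went to the outer nuclear layer (ONL), where photoreceptors lie, to the bipolar cell layer (BCL), which also contains Müller glia and horizontal cells, and to the ganglion cell layer (GCL), which displaced amacrine cells share. In 5 further sections, the few amacrine cells stained by an antibody to tyrosine hydroxylase (TH+) were barcoded apart from unstained amacrine cells (TH-). The methods state that the layer sections were cut from one animal and call the amacrine sections technical replicates as well, so every s.d. and p-value below covers the spread between sections and not between mice. A layer is a mixture of cell types, and fewer cells of a type cannot be told apart from less RNA in each cell.

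Classical cadherins hold cells together by binding the same cadherin on the neighbouring cell in the presence of calcium, with catenins linking their tails to actin, and type II members are expressed in subsets of retinal neurons that they help to wire. Each clustered protocadherin has its own promoter, and the alpha and gamma genes join their own first exon to shared last exons. Single neurons can thus carry different sets of these proteins and tell their own branches from those of other cells; in the retina the gamma genes are known for self-avoidance of starburst amacrine cells and for the survival of inner retinal neurons. The stand-alone delta protocadherins guide axons and synapses, and Pcdh15 forms the tip links of hair cells together with Cdh23.

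Sequencing depth was 310228 to 801105 UMIs (unique molecular identifiers, each standing for 1 captured cDNA) per ONL library, 193869 to 208437 in the BCL, 585655 to 785013 in the GCL, 30317 to 87449 in TH+ and 134394 to 200344 in TH- cells. The layer markers were where the labels place them. The summed level of 5 rod markers was 27040 to 33710 counts per 1000000 UMIs (CPM) in the ONL, 6112 to 10480 in the BCL and 2315 to 3801 in the GCL, so rod RNA was present in every layer. The 7 bipolar and 6 Müller glia markers were highest in the BCL, and the 7 ganglion cell markers were highest in the GCL. Rod markers also reached 6907 to 17780 CPM in TH+ and 3616 to 10410 CPM in TH- cells, while Th, Slc18a2, Slc6a3 and Ddc together gave 605.5 to 1154 CPM in TH+ and 19.7 to 79.9 CPM in TH- cells, with Slc6a3 and Ddc at 0 in the latter.

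As a whole the family was least abundant in the photoreceptor layer. Its summed level averaged 1572 ± 121.5 CPM over the ONL libraries, 3067 ± 121.6 CPM over the BCL and 3738 ± 107 CPM over the GCL (± s.d. of 4 sections). The 3 ranges, 1459 to 1738, 2927 to 3177 and 3644 to 3867 CPM, did not overlap. A single gene, Pcdh15, supplied 44.9% ± 5.73 of the ONL sum, against 5.78% ± 1.25 of the BCL sum and 1.60% ± 0.27 of the GCL sum. Without it the sums were 871 ± 155 CPM in the ONL, 2890 ± 143 CPM in the BCL and 3678 ± 112 CPM in the GCL.

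Each of the 89 members had at least 1 UMI in the layer libraries, and each of the 81 listed for the amacrine cells had at least 1 UMI there. The other 8 (Cdh3, Cdh15, Cdh17, Cdh19, Pcdh12, Pcdha4, Pcdha7 and Pcdha8) are not listed for the amacrine cells. A library showed 65 to 80 of the 89 members if from the ONL, 69 to 72 if from the BCL and 79 to 82 if from the GCL. When each library was thinned to the 193869 UMIs of the shallowest, the expected number was 53.2 ± 4.44 for ONL, 70.7 ± 1.299 for BCL and 71.2 ± 0.14 for GCL libraries, so ONL libraries showed fewer members at matched depth and the other layers did not separate. In 70 of the 89 members the ONL mean was the lowest of the 3, and in 3 it was the highest. This order was not counted over all genes, and 10 of the 89 had 1 to 9 UMIs in the layer libraries together. On column totals the ONL also ran lower over the genes tested below, with median log2 fold changes of -0.25 against the BCL and -0.16 against the GCL.

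The layers were compared by edgeR's quasi-likelihood test across all 11324 genes that passed a filter on low counts, and a gene was called at a Benjamini-Hochberg adjusted p under 0.05. Of the 89 members, 69 passed the filter, and the other 20, among them Cdh1, Cdh3, Cdh23, Pcdh12 and 8 alpha genes, were not tested. Without the GCL libraries 12 of the 69 would have missed the filter (Cdh7, Cdh9, Cdh22, Pcdh20, 4 alpha, 2 beta and 2 gamma genes). Without the BCL libraries 6 would have missed it (Cdh9, Cdh10, Pcdha2, Pcdha7, Pcdhga8 and Pcdhgb4), and without the ONL libraries 0. The shares of all genes were 10.5%, 6.82% and 6.64% in this order, so counts of members called are partly set by the filter. Fold changes are on the log2 scale, first layer minus second, ± s.e. In the ONL against the BCL, 1 member was higher in the ONL while 36, or 52.2% of those tested, were higher in the BCL, where 18.5% and 18.2% of all genes were called in these directions. In the ONL against the GCL, 3 members were higher in the ONL while 50, or 72.5%, were higher in the GCL, against 29.3% and 32.2% of all genes. In the BCL against the GCL, 7 members (10.1%) were higher in the BCL while 17 (24.6%) were higher in the GCL, against 16.1% and 20.4% of all genes. Against the ONL, the shares of members higher in the other layer were above the background and those higher in the ONL (1.45% and 4.35%) were below it, and between the inner layers the shares were nearer to it.

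The median fold change of the members tested was -1.28 in the ONL against the BCL, -1.75 in the ONL against the GCL and -0.04 in the BCL against the GCL, beside medians over all genes of 0.087, 0.004 and -0.018. TMM scaling set the ONL and BCL apart by factors with geometric means of 0.893 and 1.12, and with column totals alone the all-gene median of the ONL against the BCL moved to -0.25 and the split of all calls from 2096 higher and 2056 lower to 1198 and 2889. Relative to the all-gene median the members' median was -1.37 under either scaling. Scaling shifts all genes nearly alike, so this difference could not move and is no check on the scaling. With column totals, member calls numbered 1 and 42 in the ONL against the BCL and 3 and 53 in the ONL against the GCL. In the BCL against the GCL they numbered 12 and 16.

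Read together, the 3 comparisons placed 17 members (24.6%) above both other layers in the GCL, 5 (7.25%) in the BCL and 1 (1.45%) in the ONL, where 17.5%, 5.83% and 15.7% of all genes tested had these patterns. A further 21 were higher in both inner layers than in the ONL without a call between the inner layers (30.4%, against 6.77% of all genes), 9 were called only as higher in the GCL than in the ONL (against 5.76% of all genes), and 3 only as higher in the BCL than in the ONL (4.35% against 0.724%). Pcdhgc3 and Pcdhga4 had patterns of their own, and 11 tested members, namely Pcdhb8, Pcdhb19 and 9 gamma genes of the a and b types, passed no test (15.9% against 30.7%).

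**Figure D1:**
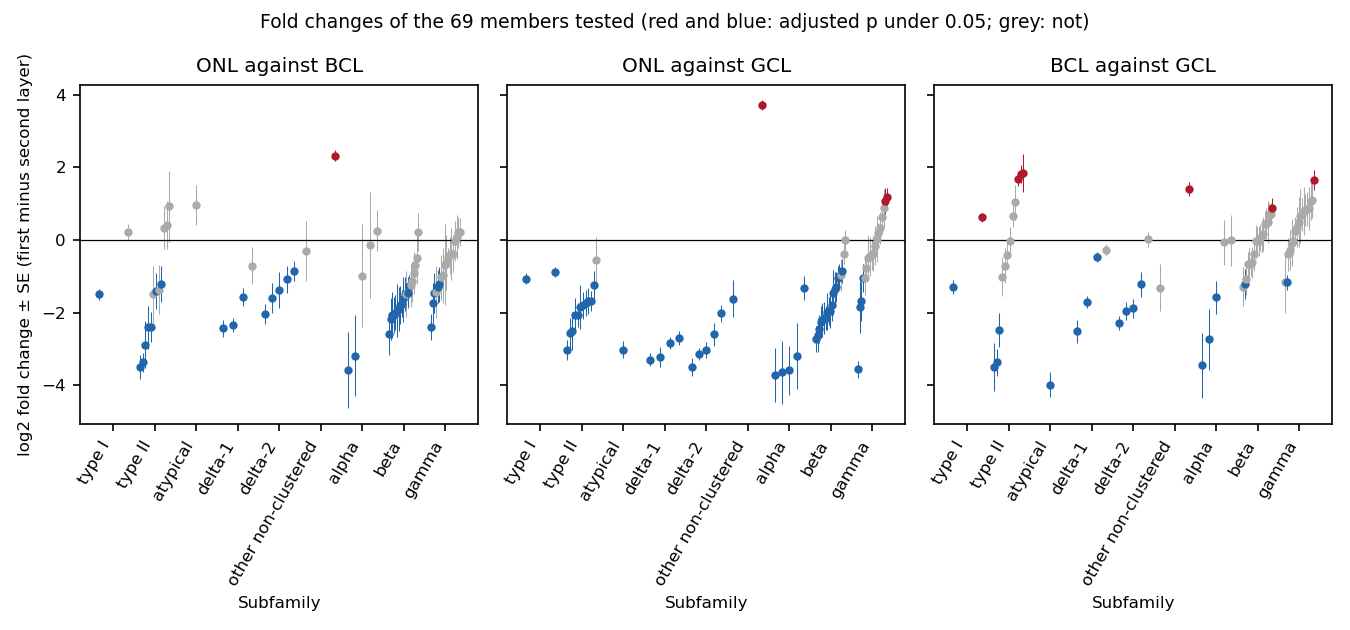
log2 fold change ± s.e. of the 69 members tested in each pair of layers, one point per gene, grouped by subfamily; red and blue points passed an adjusted p of 0.05 and grey points did not. In the comparisons with the ONL nearly all coloured points lie below 0, with Pcdh15 in the group of other non-clustered genes as the high red point, and between the BCL and the GCL they lie on both sides.

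Pcdh15 was the member that marked the photoreceptor layer. This gene (chromosome 10, plus strand) is mutated in a form of Usher syndrome, in which deafness is joined by photoreceptor loss. In the ONL, Pcdh15 stood at 678, 747, 730.5 and 648 CPM from section to section, in the BCL at 165, 149, 224 and 168 CPM and in the GCL at 49.7, 62.9, 70.7 and 54.6 CPM. Every ONL library lay above every BCL library and every BCL library above every GCL library. The fold changes were 2.33 ± 0.14 against the BCL, 3.73 ± 0.13 against the GCL, and 1.40 ± 0.19 for the BCL against the GCL (edgeR adjusted p = 5.02e-20, 9.54e-30 and 1.47e-08). Per kilobase of deposited exon length it was also the highest member of the ONL, at 29.5 ± 1.93 RPKM (reads, here UMIs, per kilobase of exon on the CPM scale), ahead of Cdh2 at 14.3 ± 1.46 RPKM and Cdh4 at 12.8 ± 3.95 RPKM, a pair whose spreads overlap. Over exon bases shared with no other gene Pcdh15 stood at 29.6 RPKM and Pcdhgc3 came next at 23.0, ahead of Cdh2 at 13.4 RPKM.

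Pcdh15 moved with the rod markers from layer to layer. For each 1000 UMIs of the 5 rod markers the ONL libraries held 22.6 ± 2.62 UMIs of Pcdh15, the BCL libraries 22.4 ± 3.65 and the GCL libraries 20.5 ± 2.50 (± s.d. of 4 sections), and the ranges of 19.2 to 25.1, 18.3 to 27 and 18.3 to 23.6 overlapped. In the amacrine libraries the ratio was 11.2 ± 4.78 in TH+ and 13.8 ± 12.2 in TH- cells (n = 5 each), below every layer library in 9 of the 10 and above them, at 35.2, in replicate 2 of TH-. What part rod RNA has in the BCL and GCL values was not tested.

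**Figure D2:**
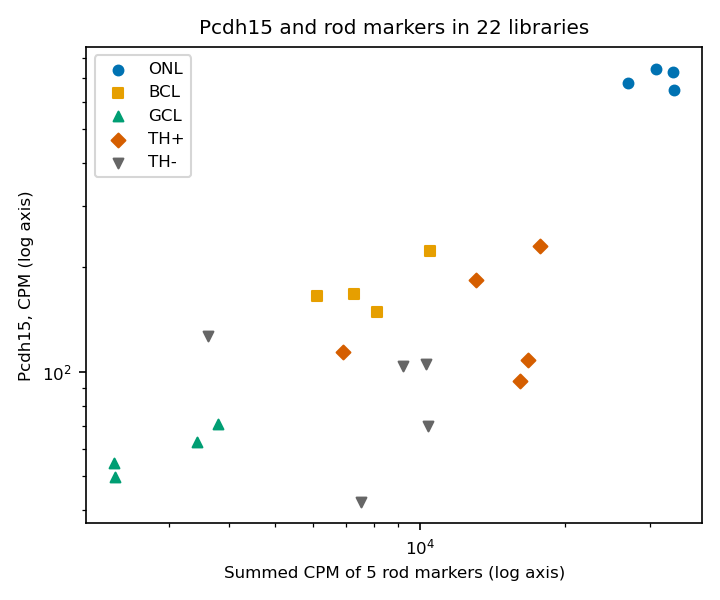
Pcdh15 CPM against the summed CPM of 5 rod markers (Pde6b, Gnat1, Nrl, Sag and Cnga1), both on log axes, in each of the 22 libraries. The layer libraries lie along a line from the GCL at 49.7 to 70.7 CPM of Pcdh15 to the ONL at 648 to 747 CPM, and most amacrine libraries lie below it.

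Cdh23, the tip-link partner of Pcdh15, was almost absent, with no UMI in any ONL or BCL library and 3 UMIs in the GCL libraries together. Taken alone, a count of 0 in an ONL library allows an expected number of up to about 3 UMIs there, and less per library when these libraries are pooled. Of 8 Usher partners listed with the pair, 3 were tested, and Adgrv1 and Whrn were higher in the ONL than in the BCL or the GCL. Adgrv1 and Whrn, which act in one complex at the photoreceptor connecting cilium, had 200.8 ± 13.1 and 275 ± 12.6 CPM in the ONL against 39.6 ± 8.61 and 71.0 ± 11 CPM in the GCL. Whrn did not pass the test between the BCL and the GCL (edgeR adjusted p = 0.226), and the scaffold gene Ush1g was lower in the ONL, at 0.97 ± 1.21 CPM, than in the BCL at 9.94 ± 7.05 and the GCL at 9.05 ± 2.45 CPM.

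Among the classical type I cadherins, Cdh2 and Cdh4 were tested and had different layers of highest level. Cdh2 is N-cadherin, the common cadherin of neuroepithelium and glia. Cdh2 gave 131, 116, 103 and 113 CPM over the ONL sections, 433, 470.2, 356 and 420.2 CPM over the BCL sections and 217, 241, 241 and 277 CPM over the GCL sections. No ranges overlapped, and the BCL exceeded the ONL (-1.50 ± 0.14, edgeR adjusted p = 4.23e-13) and the GCL (0.62 ± 0.13, edgeR adjusted p = 6.08e-05). It was the highest member of the BCL per kilobase, at 52.1 ± 5.91 RPKM over the deposited length and 48.4 RPKM over unshared exon bases, where Pcdhgc3 followed at 42.6 RPKM.

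Cdh4 is R-cadherin, named after the retina. The sections gave 106, 106, 50.2 and 109.6 CPM of Cdh4 in the ONL, 87.7, 81.6, 137 and 109 CPM in the BCL and 233, 244, 178 and 246 CPM in the GCL. The GCL lay above both other layers in every section (fold changes of -1.29 ± 0.19 from the BCL and -1.07 ± 0.15 from the ONL, edgeR adjusted p = 1.68e-07 and 1.51e-08), while the ONL and BCL ranges overlapped. Replicate 3 of the ONL, at 50.2 CPM, stood apart from the other ONL libraries at 106 to 110 CPM.

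Among the type II cadherins none of the 12 tested was higher in the ONL, 7 exceeded it in the BCL and 11 exceeded it in the GCL, where 18.2% and 32.2% of all genes were called in these directions. Between the inner layers there were 3 calls each way, on a background of 16.1% and 20.4% of all genes. Those higher in the BCL were Cdh8, Cdh9 and Cdh11, and those higher in the GCL were Cdh6, Cdh7 and Cdh24. Cdh7, Cdh9 and Cdh22 would not have passed the filter without the GCL libraries, nor Cdh9 and Cdh10 without the BCL libraries. The filter itself thus bears on these counts of type II genes. As a sum the 13 type II genes reached 83.8 ± 34.9 CPM in the ONL, 490.3 ± 23.6 CPM in the BCL and 384 ± 19.4 CPM in the GCL.

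Cdh11, OB-cadherin, led the type II genes of the BCL per kilobase of deposited length, at 21.8 ± 3.21 RPKM ahead of Cdh8 at 13.4 ± 1.12 RPKM. Levels of Cdh11 were 13.7, 9.68, 9.13 and 35.5 CPM in the ONL, 232, 163, 193 and 188 CPM in the BCL and 40.8, 64.4, 56.9 and 52.9 CPM in the GCL. No BCL value overlapped with another layer, and the fold changes were -3.37 ± 0.26 for the ONL against the BCL and 1.69 ± 0.20 for the BCL against the GCL (edgeR adjusted p = 2.84e-16 and 2.87e-10). Cdh8 and Cdh9 are known to mark different bipolar cell types and to steer their axons to different sublayers. Cdh8 read 9.99, 2.77, 9.13 and 6.45 CPM in the 4 ONL libraries, 92.8, 106, 102 and 114 CPM in the BCL and 22.9, 23.98, 29.2 and 29.03 CPM in the GCL, each in order of section. Its BCL libraries lay above all others (-3.50 ± 0.33 and 1.81 ± 0.24, edgeR adjusted p = 2.32e-13 and 1.68e-08). Cdh9 was scarcer, at 3.58 ± 0.772 CPM in the ONL, 24.7 ± 15.6 CPM in the BCL and 6.14 ± 3.19 CPM in the GCL. Its BCL value lay above the GCL in 3 of 4 sections (1.85 ± 0.52, edgeR adjusted p = 0.0034), a call lost without replicate 2 of the BCL. Without the BCL libraries, where it was highest, Cdh9 would have missed the filter.

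Cdh6 labels a set of direction-selective ganglion cells. In the ONL, Cdh6 stood at 16.2, 8.3, 4.57 and 6.45 CPM from section to section, in the BCL at 5.16, 19.2, 5.08 and 9.89 CPM and in the GCL at 121, 94.4, 70.7 and 88.8 CPM. The ONL and BCL overlapped at low values and the GCL lay above both (-3.03 ± 0.27 and -3.38 ± 0.38, edgeR adjusted p = 2.02e-14 and 1.15e-10). Cdh7 showed the same arrangement with fewer UMIs, 75 over the 4 GCL libraries against 9 for the ONL and 2 for the BCL. Without the GCL libraries it would have missed the filter. Cdh7 gave 6.24, 1.38, 4.57 and 3.22 CPM over the ONL sections, 0, 4.798, 5.08 and 0 CPM over the BCL sections and 33.1, 25.5, 23.1 and 29.03 CPM over the GCL sections. The sections gave 11.2, 4.15, 6.85 and 19.3 CPM of Cdh24 in the ONL, 0, 4.798, 10.2 and 19.8 CPM in the BCL and 30.6, 43.5, 59.9 and 47.8 CPM in the GCL. For both genes every GCL value lay above all others (fold changes between the inner layers -3.50 ± 0.65 and -2.49 ± 0.47, edgeR adjusted p = 1.55e-05 and 2.30e-05).

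Levels of Cdh20 were 9.99, 5.53, 4.57 and 9.67 CPM in the ONL, 30.9, 67.2, 45.7 and 59.3 CPM in the BCL and 38.2, 23.98, 32.3 and 18.8 CPM in the GCL. Its inner layers overlapped and both lay above the ONL (-2.40 ± 0.40 and -1.75 ± 0.36, edgeR adjusted p = 2.06e-06 and 3.44e-05). Cdh18 read 9.99, 4.15, 4.57 and 6.45 CPM in the 4 ONL libraries, 15.5, 19.2, 30.5 and 24.7 CPM in the BCL and 22.9, 23.98, 26.1 and 34.1 CPM in the GCL, each in order of section. Here too the inner layers overlapped and both lay above the ONL (-1.40 ± 0.50 and -1.80 ± 0.37, edgeR adjusted p = 0.0215 and 2.89e-05). Like these, Cdh10 and Cdh12 were higher in both inner layers than in the ONL. The calls against the BCL were lost under 6 alternatives for Cdh12 and under 5 for Cdh18. That of Cdh10 against the GCL was lost without replicate 1 of the GCL, and without the BCL libraries Cdh10 would have missed the filter. Cdh22 and Cdh5 were higher in the GCL than in the ONL, and without the GCL libraries Cdh22 would have missed the filter. Cdh5, the cadherin of endothelial junctions, stood at 15.9 ± 13.4 CPM in the BCL and 23.7 ± 9.89 CPM in the GCL with overlapping ranges, while the 5 endothelial markers summed to 935 to 1001 CPM in the BCL and 169 to 239 CPM in the GCL.

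Cdh13, or T-cadherin, lacks the usual tail and is held to the membrane by a lipid anchor. In the ONL, Cdh13 stood at 11.2, 12.4, 18.3 and 16.1 CPM from section to section, in the BCL at 5.16, 4.798, 15.2 and 9.89 CPM and in the GCL at 136, 133, 144 and 90.5 CPM. Its adjusted p between the inner layers was the second smallest of the members, after Pcdh10, with fold changes of -3.98 ± 0.35 between these layers and -3.02 ± 0.23 for the ONL against the GCL (edgeR adjusted p = 3.27e-14 and 2.64e-17). The ONL and BCL overlapped, and their difference did not pass the test (edgeR adjusted p = 0.180).

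**Figure D3:**
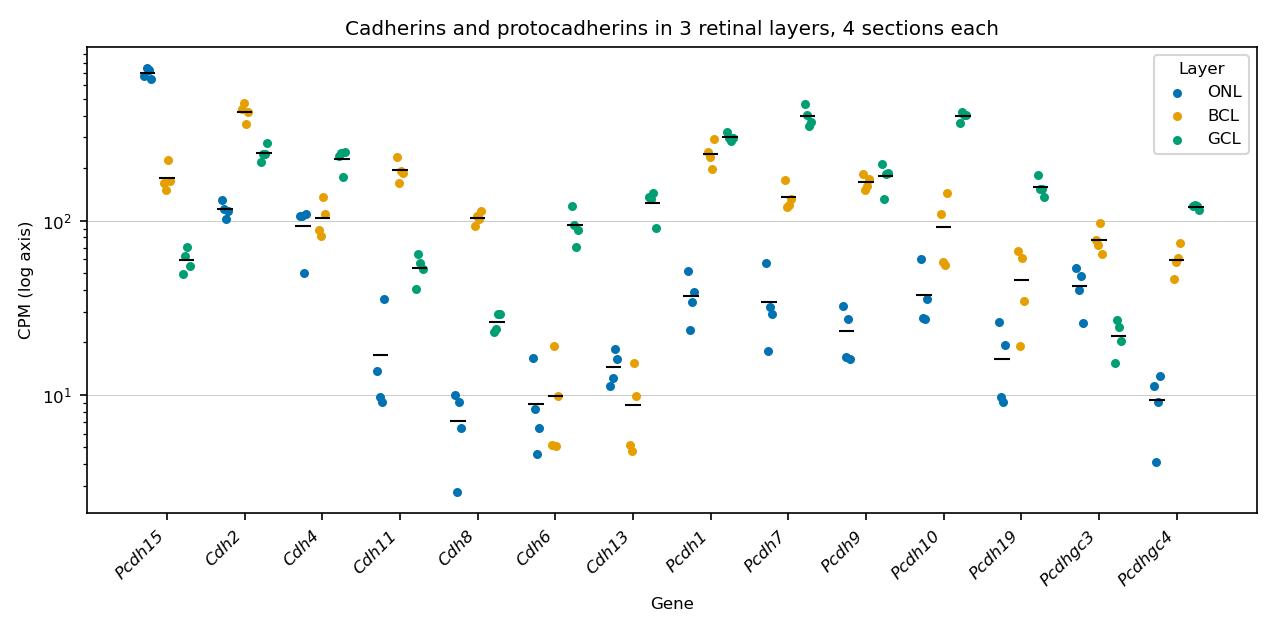
CPM on a log axis of 14 members in the 3 layers; each point is a section (4 per layer) and each black line is the mean. By mean, Pcdh15 is highest in the ONL, and Cdh2, Cdh11, Cdh8 and Pcdhgc3 are highest in the BCL. Means of Cdh4, Cdh6, Cdh13, Pcdh7, Pcdh10, Pcdh19 and Pcdhgc4 are highest in the GCL.

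The delta protocadherins exceeded the ONL in the GCL without exception. All 4 members of the first delta group (Pcdh1, Pcdh7, Pcdh9 and Pcdh11x) and all 5 of the second (Pcdh8, Pcdh10, Pcdh17, Pcdh18 and Pcdh19) were higher in the GCL than in the ONL, as were 32.2% of all genes. Against the BCL, 3 of the first and 4 of the second were higher in the GCL, as were 20.4% of all genes, with Pcdh9 and Pcdh17 as the exceptions. The first group summed to 102 ± 34.04 CPM in the ONL, 562 ± 65.8 CPM in the BCL and 966 ± 85.4 CPM in the GCL, and the second to 87.6 ± 35.2, 290.2 ± 66.9 and 804 ± 36.3 CPM.

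Pcdh7 and Pcdh10 both rose from the ONL to the GCL. Pcdh7 gave 57.4, 17.98, 31.96 and 29.01 CPM over the ONL sections, 170.2, 119.9, 122 and 134 CPM over the BCL sections and 465, 403, 347 and 369 CPM over the GCL sections. The 3 ranges did not overlap, and the fold changes were -3.29 ± 0.17 for the ONL against the GCL and -1.71 ± 0.17 for the BCL against the GCL (edgeR adjusted p = 2.34e-23 and 2.48e-12). Pcdh10 binds a subunit of the WAVE complex, which drives actin branching. The sections gave 59.9, 27.7, 27.4 and 35.5 CPM of Pcdh10 in the ONL, 108, 57.6, 55.9 and 143 CPM in the BCL and 362, 418, 403 and 401 CPM in the GCL. Its GCL libraries lay above all others (-3.14 ± 0.17 and -2.28 ± 0.19, edgeR adjusted p = 9.93e-23 and 4.22e-15), and replicates 2 and 3 of the BCL fell inside the ONL range. The call of the ONL against the BCL for Pcdh10 was lost without replicate 2 of the ONL or replicate 4 of the BCL.

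Pcdh1 and Pcdh9 were abundant in both inner layers. Levels of Pcdh1 were 51.2, 23.5, 34.2 and 38.7 CPM in the ONL, 248, 230.3, 198 and 292 CPM in the BCL and 321, 298, 284 and 297 CPM in the GCL. Both inner layers lay above the ONL (-2.35 ± 0.20 and -2.83 ± 0.16, edgeR adjusted p = 7.03e-15 and 5.75e-22), and the difference between them was small and overlapping (-0.48 ± 0.14, edgeR adjusted p = 0.00483) and no longer passed the test with column totals. Pcdh9 read 32.5, 16.6, 27.4 and 16.1 CPM in the 4 ONL libraries, 186, 149, 158 and 173 CPM in the BCL and 210.2, 133, 186 and 186 CPM in the GCL, each in order of section. The inner layers overlapped and did not pass the test (edgeR adjusted p = 0.19), and both lay above the ONL (-2.43 ± 0.24 and -2.71 ± 0.19, edgeR adjusted p = 1.51e-12 and 4.57e-18).

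Pcdh19, an X-linked gene mutated in a childhood epilepsy of girls, was higher in the GCL. In the ONL, Pcdh19 stood at 26.2, 9.68, 9.13 and 19.3 CPM from section to section, in the BCL at 67.1, 19.2, 60.98 and 34.6 CPM and in the GCL at 182, 151, 152 and 137 CPM. The GCL libraries lay above all others, and the BCL spread was wide (-1.96 ± 0.24, edgeR adjusted p = 1.53e-09). Pcdh11x is also on the X chromosome. Pcdh11x gave 7.49, 9.68, 9.13 and 6.45 CPM over the ONL sections, 15.5, 33.6, 5.08 and 14.8 CPM over the BCL sections and 94.3, 70.4, 98.4 and 99.03 CPM over the GCL sections. Its GCL values lay above all others (fold change between the inner layers -2.52 ± 0.32, edgeR adjusted p = 3.17e-09).

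The sections gave 13.7, 4.15, 6.85 and 12.9 CPM of Pcdh8 in the ONL, 41.3, 47.98, 15.2 and 39.5 CPM in the BCL and 119.7, 130.4, 106 and 123 CPM in the GCL. Its 3 ranges did not overlap (-1.89 ± 0.25 for the inner layers, edgeR adjusted p = 1.29e-08), and 46.5% of its annotated exon bases overlap another gene, where reads go uncounted at the settings stated for the counting. Levels of Pcdh18 were 13.7, 4.15, 4.57 and 3.22 CPM in the ONL, 10.3, 23.99, 30.5 and 34.6 CPM in the BCL and 62.4, 47.96, 55.3 and 40.98 CPM in the GCL. The GCL lay above both other layers (-1.22 ± 0.34 from the BCL, edgeR adjusted p = 0.00267), and the call of the ONL against the BCL was lost under 5 alternatives. Pcdh17 read 19.97, 15.2, 11.4 and 25.8 CPM in the 4 ONL libraries, 103, 67.2, 91.5 and 109 CPM in the BCL and 76.4, 106, 75.3 and 66.6 CPM in the GCL, each in order of section. Its inner layers overlapped (0.01 ± 0.21, edgeR adjusted p = 0.967) and both lay above the ONL (-2.04 ± 0.29 and -2.02 ± 0.23).

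The order of members per kilobase in the GCL depended on the length used. Over the deposited exon length Pcdh7, Pcdh1, Cdh4 and Cdh2 had 37.4 ± 4.84, 34.1 ± 1.73, 31.1 ± 4.40 and 30.2 ± 3.06 RPKM, spreads that overlap from each gene to the next, and Pcdh8 had 26.4 ± 2.24 RPKM. Over the exon bases that overlap no other gene in GENCODE vM39, Pcdh8 had 49.3 RPKM, Pcdh1 34.0, Pcdhgc4 32.5, Cdh4 31.0, Cdh2 28.1 and Pcdh7 26.8 RPKM. This order also carries differences between the annotations. Pcdh7 has 17344 exon bases in vM39, 2540 of them shared, against a deposited length of 10604, so its value fell.

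Promoter sequences are shown for 4 members that differ in their layer of highest level, chosen after their values were seen and outside the chromosome that holds the clusters. Each is the 250 bases before the annotated start of the canonical transcript in GENCODE vM39, read 5′ to 3′ on the gene's strand from GRCm39, the assembly the authors aligned to as mm39. Capitals mark any match, on either strand, to TAATCC (the core bound by the photoreceptor factor CRX), TAATTA (a homeodomain core), TATAAA (the TATA box) or GGGCGG (the GC box). No match overlapped another. Pcdh15, highest in the ONL, lies at chr10:73657440-73657689 on the plus strand, Cdh9, highest in the BCL, at chr15:16728448-16728697 on the plus strand, and Pcdh10 and Pcdh19, highest in the GCL, at chr3:45332591-45332840 on the plus and chrX:132589820-132590069 on the minus strand.
Pcdh15: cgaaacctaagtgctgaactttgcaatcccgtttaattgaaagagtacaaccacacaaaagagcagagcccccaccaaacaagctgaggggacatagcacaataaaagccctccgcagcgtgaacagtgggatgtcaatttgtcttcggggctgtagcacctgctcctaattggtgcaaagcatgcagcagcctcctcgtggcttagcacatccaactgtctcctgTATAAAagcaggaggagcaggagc
Cdh9: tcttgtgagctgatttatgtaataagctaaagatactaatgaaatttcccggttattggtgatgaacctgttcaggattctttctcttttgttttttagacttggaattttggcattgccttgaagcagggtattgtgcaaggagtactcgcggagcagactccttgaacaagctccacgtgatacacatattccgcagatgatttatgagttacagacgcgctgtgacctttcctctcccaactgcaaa
Pcdh10: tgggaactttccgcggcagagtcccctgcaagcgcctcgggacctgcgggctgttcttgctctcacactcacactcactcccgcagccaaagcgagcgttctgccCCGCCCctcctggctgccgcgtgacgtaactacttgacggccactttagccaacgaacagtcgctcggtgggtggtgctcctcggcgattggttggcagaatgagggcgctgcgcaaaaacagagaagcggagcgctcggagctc
Pcdh19: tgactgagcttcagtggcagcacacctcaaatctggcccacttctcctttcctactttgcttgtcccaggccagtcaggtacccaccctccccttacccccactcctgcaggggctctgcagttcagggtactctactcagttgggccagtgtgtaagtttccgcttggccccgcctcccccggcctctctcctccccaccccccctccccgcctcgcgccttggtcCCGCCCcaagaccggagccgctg

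The Pcdh15 window held TATAAA from 24 to 19 bases before the start and the Pcdh10 window held the GC box from 145 to 140 bases before it, as did the Pcdh19 window from 23 to 18 bases before it, while the Cdh9 window held none of these 4 strings. GC content was 50.4% for Pcdh15, 41.6% for Cdh9, 63.2% for Pcdh10 and 64.4% for Pcdh19, beside a median of 53.2% over 21770 promoters of protein-coding genes. Among the 30 members outside the clusters' chromosome, TAATCC was in 3 windows (against 7.0% of all promoters), TAATTA in 0 (against 5.18%), TATAAA in 4 (13.3%, against 11.9%) and GGGCGG in 12 (40.0%, against 36.3%). The 3 with TAATCC were Cdh7, Cdh10 and Cdh15. A match is a description of letters, and a window without one says nothing of the factor. The annotated Pcdh15 gene begins upstream of its window, at 72935174, and which start its ONL transcripts use was not tested.

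The clustered protocadherins lie head to tail on chromosome 18 of GRCm39, the alpha genes at 37063237 to 37320716, the beta genes at 37397991 to 37657532 and the gamma genes at 37794846 to 37975014. The alpha and gamma genes splice their own first exon to shared last exons, and reads in shared exons were lost when reads overlapping several genes were dropped. In GENCODE vM39, shared bases make up a median of 53.7% of the exon length of alpha genes and 46.3% of gamma genes and 0% of beta genes, although 63.5% of Pcdhb12 is shared. The counts of alpha and gamma genes therefore stand mainly for their own first exons. Together the 56 genes summed to 363 ± 37.5 CPM in the ONL, 993 ± 36.6 CPM in the BCL and 909.6 ± 53.4 CPM in the GCL, with overlapping ranges in the inner layers.

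The beta genes were lower in the ONL nearly throughout. The ONL mean was the lowest of the 3 in 21 of 22 beta genes, an order not counted over all genes. Of the 20 tested, 13 were called higher in the BCL than in the ONL, as were 18.2% of all genes. In the GCL 17 exceeded the ONL, as did 32.2% of all genes, and Pcdhb7 and Pcdhb13 would have missed the filter without the GCL libraries. No beta gene was called higher in the ONL, as were 18.5% and 29.3% of all genes in these comparisons. Summed, they stood at 152 ± 32.7 CPM in the ONL, 521 ± 34.2 CPM in the BCL and 473 ± 42.6 CPM in the GCL. Between the inner layers only Pcdhb18 was called higher in the BCL and only Pcdhb3 higher in the GCL.

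Pcdhb18 was the beta gene called higher in the BCL. It and its neighbours Pcdhb17 and Pcdhb19 had means, in the order Pcdhb17, Pcdhb18 and Pcdhb19, of 51.5 ± 19.2, 65.9 ± 14.1 and 49.8 ± 19.7 CPM in the BCL against 27.7 ± 6.09, 31.4 ± 12.9 and 26.6 ± 6.299 CPM in the GCL. In the ONL, Pcdhb18 stood at 22.5, 22.1, 25.1 and 12.9 CPM from section to section, in the BCL at 67.1, 76.8, 45.7 and 74.2 CPM and in the GCL at 34.4, 32.97, 44.6 and 13.7 CPM. Its BCL libraries lay above all others (-1.27 ± 0.31 and 0.88 ± 0.28, edgeR adjusted p = 8.54e-04 and 0.0117), although the second call was lost without replicate 2 of the BCL or replicate 4 of the GCL. Pcdhb17 and Pcdhb19 missed the threshold between the inner layers (edgeR adjusted p = 0.0729 and 0.0644).

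Pcdhb2 was higher in both inner layers than in the ONL, and Pcdhb3 was higher in the GCL than elsewhere. Pcdhb2 gave 8.74, 2.77, 0 and 12.9 CPM over the ONL sections, 36.1, 28.8, 30.5 and 29.7 CPM over the BCL sections and 35.7, 55.5, 53.8 and 32.4 CPM over the GCL sections. The inner layers overlapped, and the comparisons with the ONL passed the test (-2.73 ± 0.37 against the GCL, edgeR adjusted p = 4.78e-09), while that between the inner layers did not (edgeR adjusted p = 0.117). The sections gave 7.49, 0, 9.13 and 6.45 CPM of Pcdhb3 in the ONL, 25.8, 14.4, 15.2 and 9.89 CPM in the BCL and 33.1, 35.97, 35.4 and 30.7 CPM in the GCL. Every GCL value lay above every BCL value (-1.21 ± 0.41 for the BCL against the GCL, edgeR adjusted p = 0.0156), and this call was lost without replicate 4 of the BCL.

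Other beta genes were raised in both inner layers over the ONL with no call between them. Levels of Pcdhb14 were 13.7, 4.15, 2.28 and 9.67 CPM in the ONL, 25.8, 28.8, 30.5 and 29.7 CPM in the BCL and 50.95, 40.5, 33.8 and 34.1 CPM in the GCL. Pcdhb9 read 2.497, 1.38, 4.57 and 6.45 CPM in the 4 ONL libraries, 20.6, 14.4, 45.7 and 19.8 CPM in the BCL and 19.1, 20.98, 26.1 and 25.6 CPM in the GCL, each in order of section. All inner-layer values of these genes lay above their ONL values. In the ONL, Pcdhb10 stood at 3.75, 4.15, 2.28 and 6.45 CPM from section to section, in the BCL at 10.3, 14.4, 10.2 and 29.7 CPM and in the GCL at 28.03, 25.5, 13.8 and 20.5 CPM. Pcdhb16 gave 4.99, 4.15, 9.13 and 9.67 CPM over the ONL sections, 25.8, 62.4, 20.3 and 19.8 CPM over the BCL sections and 36.9, 20.98, 26.1 and 25.6 CPM over the GCL sections. Here too the ONL did not overlap with either inner layer, although the call of Pcdhb10 against the BCL was lost under 4 alternatives. For Pcdhb14, Pcdhb9, Pcdhb10 and Pcdhb16 in turn, the fold changes of the ONL against the GCL were -2.15 ± 0.33, -2.62 ± 0.46, -2.25 ± 0.44 and -1.96 ± 0.39.

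The alpha genes were scarce. Of 13, 5 were tested, all 5 were higher in the GCL than in the ONL, and 3 (Pcdha2, Pcdha3 and Pcdhac2) were higher in the GCL than in the BCL, beside 32.2% and 20.4% of all genes. Since Pcdha2, Pcdha3, Pcdha7 and Pcdha12 would not have passed the filter without the GCL libraries, the filter itself bears on these counts. Pcdha2 had 2 UMIs in the 4 ONL libraries together, 2 in the BCL and 44 in the GCL, and Pcdha3 had 2, 1 and 40. The sections gave 2.497, 0, 0 and 0 CPM of Pcdha2 in the ONL, 0, 0, 10.2 and 0 CPM in the BCL and 15.3, 19.5, 26.1 and 3.42 CPM in the GCL. Levels of Pcdha3 were 1.25, 0, 2.28 and 0 CPM in the ONL, 0, 0, 0 and 4.94 CPM in the BCL and 17.8, 11.99, 18.4 and 10.2 CPM in the GCL. The GCL and BCL values of Pcdha2 overlapped through 1 library of each, and those of Pcdha3 did not, and the call of Pcdha2 between these layers was lost with DESeq2. Pcdha7 and Pcdha12 were called higher in both inner layers, with 1 UMI each in the ONL. Their calls against the BCL were lost under 3 alternatives for Pcdha7 and without replicate 1 of the BCL for Pcdha12. Pcdhac2, a C-type isoform by which serotonergic axons space themselves, had the highest GCL level of the alpha genes per kilobase (5.84 ± 2.13 RPKM), at 11.7 ± 2.04 CPM in the ONL, 12.3 ± 10.1 CPM in the BCL and 34.4 ± 12.5 CPM in the GCL (fold change between the inner layers -1.58 ± 0.45, edgeR adjusted p = 0.0041). One GCL library, replicate 4, held 52.9 CPM of it against 25.5 to 29.97 CPM in the others.

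In the gamma cluster a pair of neighbouring C-type isoforms differed in their layer patterns. Pcdhgc3 and Pcdhgc4 follow each other at the end of the cluster, and Pcdhgc4 is the isoform on which neuronal survival depends. Pcdhgc3 read 53.7, 40.1, 47.9 and 25.8 CPM in the 4 ONL libraries, 77.4, 71.96, 96.5 and 64.3 CPM in the BCL and 15.3, 26.98, 24.6 and 20.5 CPM in the GCL, each in order of section. The BCL lay above the GCL (1.66 ± 0.28, edgeR adjusted p = 2.52e-06). The ONL was also above the GCL (1.19 ± 0.25, edgeR adjusted p = 4.32e-05), although 1 ONL value lay inside the GCL range. The ONL and BCL values did not overlap, but the difference between these layers passed the test only with column totals.

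Pcdhgc4 was instead highest in the GCL. In the ONL, Pcdhgc4 stood at 11.2, 4.15, 9.13 and 12.9 CPM from section to section, in the BCL at 46.4, 57.6, 60.98 and 74.2 CPM and in the GCL at 121, 123, 121 and 114 CPM. Its ranges did not overlap, and the GCL exceeded the BCL (-1.17 ± 0.21, edgeR adjusted p = 8.08e-06) and the ONL (-3.56 ± 0.24, edgeR adjusted p = 5.20e-19). Müller glia markers were highest in the BCL, at 6545 to 7262 CPM, against 1253 to 1505 in the GCL and 596 to 1096 in the ONL. Bipolar markers were also highest there, at 5518 to 6175 CPM, against 183 to 315 in the GCL and 678 to 919 in the ONL. The part of either cell type in the level of Pcdhgc3 was not tested. The last C-type gene, Pcdhgc5, was not tested, with 5.66 ± 1.62 CPM in the GCL.

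The gamma genes of the a and b types gave few calls one by one. The 18 genes summed to 139 ± 13.6 CPM in the ONL, 268.5 ± 9.94 CPM in the BCL and 182 ± 28.7 CPM in the GCL, with no overlap between the ranges. On the TMM library sizes used in the tests, a scaling of the sums chosen after seeing the data, the ONL at 141 to 182 CPM overlapped with the GCL at 162 to 223 CPM and the BCL, at 233 to 254 CPM, with neither. Of the 16 tested, 9 passed no test in any pair of layers, as did 30.7% of all genes. Pcdhga2, Pcdhga3, Pcdhgb1 and Pcdhgb5 were called higher in the BCL than in the ONL, and Pcdhga3, Pcdhga8 and Pcdhgb6 higher in the GCL than in the ONL, beside 18.2% and 32.2% of all genes. Of these calls, that of Pcdhga2 was lost under 8 alternatives, those of Pcdhga3 against the BCL and of Pcdhga8 under 6 each, and that of Pcdhgb1 under 3. Pcdhga8 would also have missed the filter without the GCL libraries, where it was highest, or without the BCL libraries. Pcdhga4 was higher in the ONL than in the GCL, with 12.9 to 23.5 against 5.12 to 12.3 CPM (1.08 ± 0.36, edgeR adjusted p = 0.00844), a call lost without replicate 2 of the ONL.

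**Figure D4:**
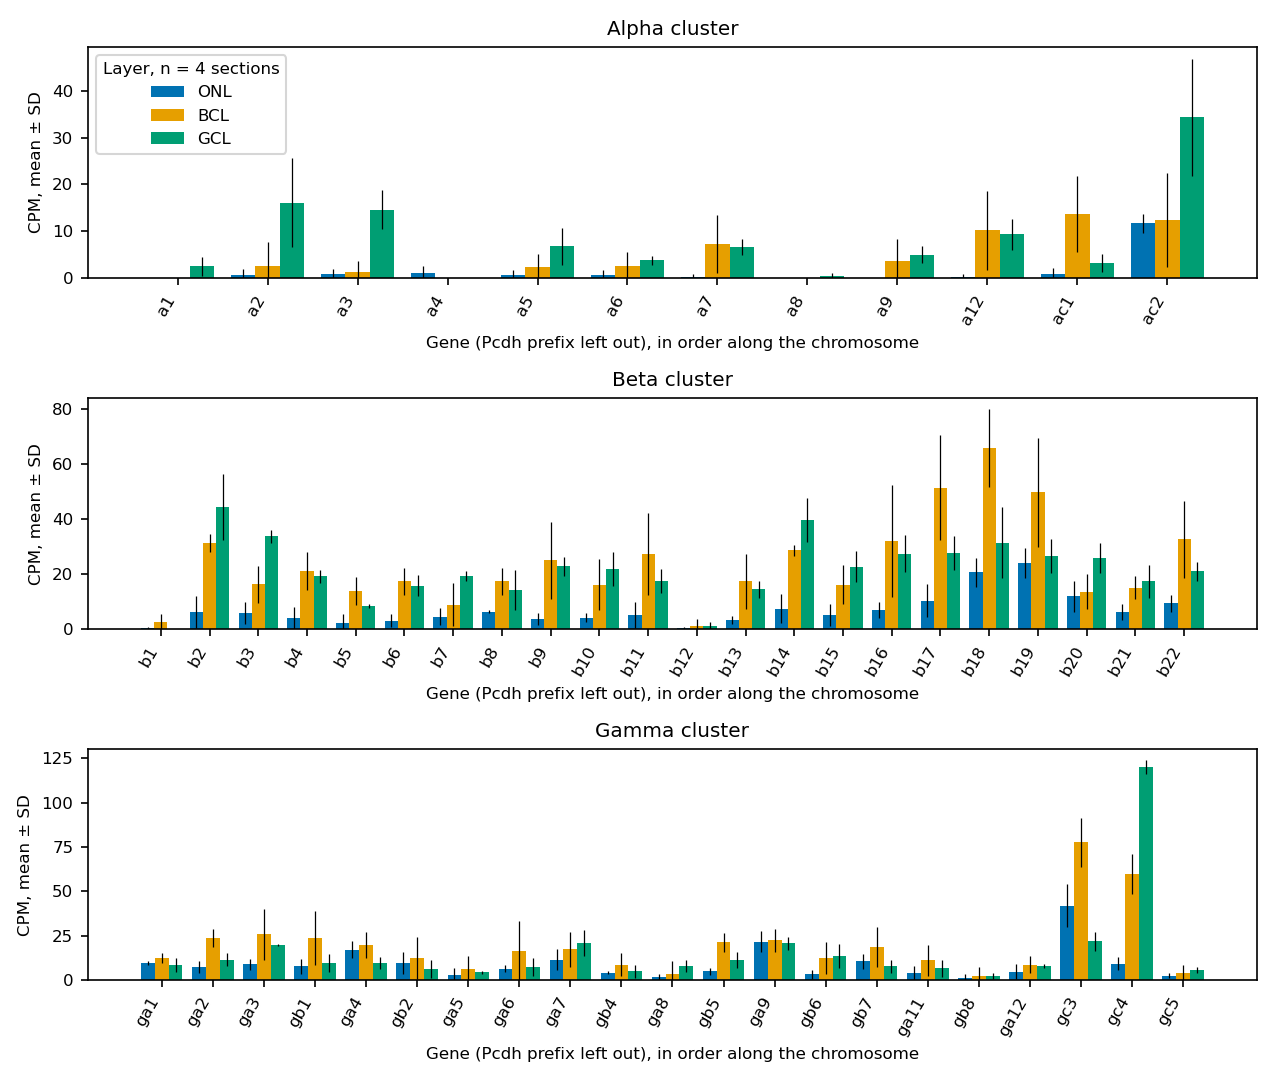
Mean CPM ± s.d. (n = 4 sections) of 55 clustered protocadherins in the 3 layers, in their order along the chromosome, one panel per cluster; Pcdha11 has no position here, and lower error bars stop at 0. Blue ONL bars are the lowest for nearly all beta genes, and Pcdhgc3 and Pcdhgc4 near the right end of the gamma panel differ in order, with the BCL highest and the GCL lowest for the first and the GCL highest and the ONL lowest for the second.

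Genes that act with the family were followed as lists. Their counts stand on the same backgrounds as those of the members, which in the ONL against the GCL were 29.3% of all genes for the ONL and 32.2% for the GCL. Of the 10 catenins and junction partners 9 were tested, with 1 call for the ONL and 6 for the GCL, 1 for the ONL and 3 for the BCL, and 2 for the BCL and 5 for the GCL in the 3 pairs of layers. The call for the ONL over the GCL was Ctnna1 (alpha-E-catenin), at 101.5 ± 18.1 CPM in the ONL and 31.4 ± 1.45 CPM in the GCL, while its neuronal relative Ctnna2 ran from 16.02 ± 9.08 to 103 ± 7.31 CPM. Jup (plakoglobin) had 360.0 ± 21.2 CPM in the GCL against 42.4 ± 12.03 CPM in the ONL and 66.2 ± 26.01 CPM in the BCL.

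Of 16 larger relatives 8 were tested, with 2 calls for the ONL and 5 for the GCL, 1 for the ONL and 5 for the BCL, and 2 for the BCL and 3 for the GCL. Cdhr1, the photoreceptor cadherin of outer segment discs, stood at 4718 ± 955 CPM in the ONL and 533 ± 119 CPM in the GCL, and Fat4 at 524 ± 59.8 CPM in the BCL against 28.8 ± 7.25 CPM in the ONL and 41.2 ± 19.1 CPM in the GCL. Of the 18 effectors and promoter choice factors 16 were tested, with 9 calls for the ONL and 2 for the GCL, 7 for the ONL and 2 for the BCL, and 5 for the BCL and 2 for the GCL. The cohesin loader Nipbl (403 ± 19.96 against 108 ± 12.9 CPM) and Ctcf (93.2 ± 13.9 against 36.8 ± 8.46 CPM), which folds the clusters for promoter choice, were higher in the ONL than in the GCL. The WAVE subunits Nckap1 (54.0 ± 4.83 against 220.5 ± 16.8 CPM) and Cyfip2 (576 ± 53.1 against 1087 ± 50.2 CPM) were higher in the GCL.

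In the amacrine cells no member passed the test between TH+ and TH- cells. Of the 81 listed, 32 passed the filter, and 0 were called in either direction with edgeR, where 0.747% of the 6021 genes tested were higher in TH+ and 0.083% higher in TH- cells. At an unadjusted p under 0.05 in edgeR, 1 member was higher in TH+ and 3 in TH- cells. The share of all genes at that threshold was not computed, so these counts have no background. DESeq2 also called 0 at the adjusted threshold. The TH+ libraries held 96 to 282 UMIs of the family in all, against 433 to 724 in the TH- libraries, so few UMIs stand behind each TH+ value. The summed level was 3030 ± 356 CPM in TH+ and 3503 ± 395 CPM in TH- cells (n = 5 sections each) with overlapping ranges, and the median fold change of the members tested was -0.27 beside -0.05 over all genes.

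Cdh13 came closest to a call. It had 81.7, 183, 94.1, 129.7 and 132 CPM in the 5 TH+ libraries and 59.2, 17.4, 52.1, 44.9 and 77.5 CPM in the TH- libraries. All TH+ values lay above all TH- values, and TH+ was higher in 5 of 5 sections (1.40 ± 0.38, edgeR adjusted p = 0.061). With the section as a replicate block, which fits libraries taken from the same section together, the fold change was 1.45 ± 0.38 and passed the test (edgeR adjusted p = 0.0088), and it also passed with RLE scaling (adjusted p = 0.0462) or without replicate 5 of TH- (adjusted p = 0.0388). Without replicate 2 of TH+ the fold change was 1.07 ± 0.46 (edgeR adjusted p = 0.390), and it missed the threshold with DESeq2 (adjusted p = 0.156) and with no filter on low counts (adjusted p = 0.165).

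Cdh20 ran the other way. It had 5 UMIs in the TH+ libraries together and 57 in the TH- libraries, or 20.4, 34.3, 0, 0 and 32.98 CPM against 72.3, 52.1, 52.1, 94.8 and 77.5 CPM. The ranges did not overlap, but the difference did not pass the test (-1.80 ± 0.57, edgeR adjusted p = 0.151). Next in order of p were Cdh24 (-0.97 ± 0.43), Pcdhb19 (-1.34 ± 0.65) and Pcdh17 (-0.66 ± 0.34), all with overlapping ranges and adjusted p of 0.456 to 0.580 in edgeR. The sections gave 40.8, 114, 0, 43.2 and 32.98 CPM of Cdh24 in TH+ and 125, 52.1, 96.7, 145 and 148 CPM in TH- cells. For Pcdhb19 they gave 61.2, 11.4, 0, 0 and 32.98 CPM and 72.3, 57.9, 22.3, 34.9 and 70.5 CPM. For Pcdh17 they gave 81.7, 126, 70.6, 64.9 and 65.97 CPM and 171, 174, 81.8, 109.8 and 169 CPM, with TH+ lower in each section.

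The 5 members that contributed most to the family's summed CPM were the same in both amacrine groups. Cdh2, Pcdh1, Pcdh10, Pcdh19 and Cdh4 supplied 38.5% of the family's sum in TH+ and 31.5% in TH- cells. Per kilobase of deposited length the order differed, with Cdh2 at 35.3 ± 18.1 and Pcdh1 at 30.1 ± 9.83 RPKM heading TH+ cells, and Cdh2 at 33.3 ± 9.16, Cdh24 at 32.5 ± 11.4 and Pcdh1 at 32.3 ± 5.11 RPKM heading TH- cells, all with overlapping spreads. Over unshared exon bases Pcdhgc3 had 31.0 RPKM in TH+ and 41.4 RPKM in TH- cells, where Cdh2 had 32.8 and 31.0 RPKM. Cdh2 stood at 284 ± 146 and 269 ± 73.9 CPM, Pcdh1 at 265 ± 86.5 and 284 ± 44.9 CPM, and Pcdh10 at 241 ± 63.6 and 242 ± 62.1 CPM. Fitted fold changes of Cdh2, Pcdh10 and Cdh4 were -0.01 ± 0.24, -0.01 ± 0.24 and 0.03 ± 0.30, which does not show that their levels were equal. Pcdh15 had 94.1 to 231 CPM in TH+ and 42.3 to 127 CPM in TH- cells, and the part of the rod RNA in these libraries in its level was not tested.

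Of the clustered genes, 13 were tested in the amacrine cells (10 beta and 3 gamma) and no alpha gene. Their sums were 844 ± 153 CPM over 53 genes in TH+ and 1185 ± 263 CPM in TH- cells, with overlapping ranges. Pcdhac2 had 1 UMI in the TH+ libraries together and 24 in the TH- libraries, and it was not tested. A TH+ library showed 37 to 56 of the 81 members and a TH- library 62 to 77, and thinned to 30317 UMIs the expected numbers were 36.1 ± 1.51 and 41.7 ± 3.46.

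**Figure D5:**
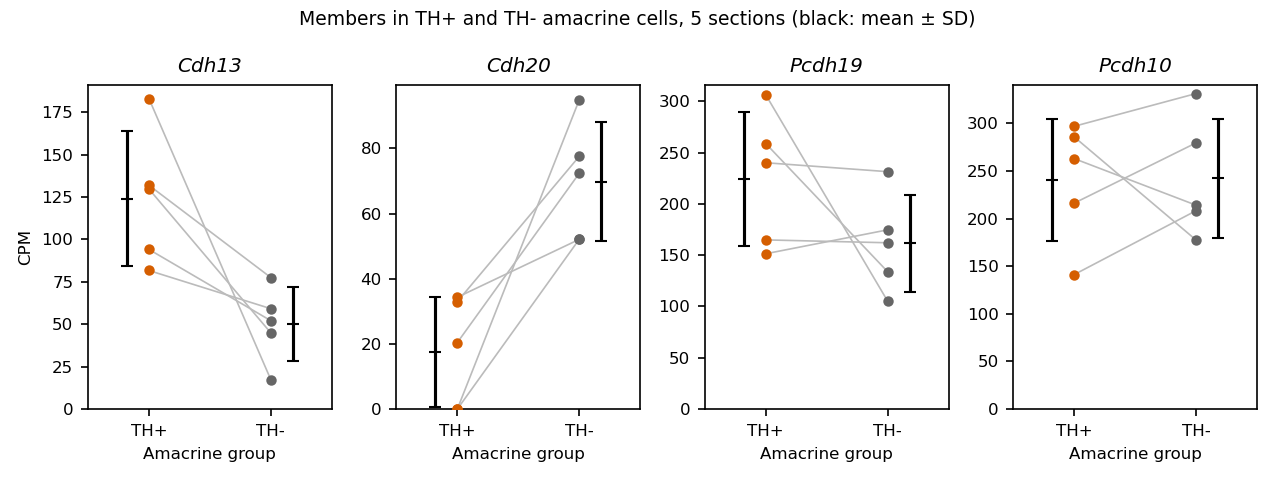
CPM of Cdh13, Cdh20, Pcdh19 and Pcdh10 in TH+ and TH- amacrine cells; grey lines join the libraries of a section (5 sections) and black bars give the mean ± s.d. For Cdh13 and Cdh20 the groups do not overlap, in opposite directions, and for Pcdh19 and Pcdh10 they do.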

How the data were processed

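Retinal sections were barcoded layer by layer or cell group by cell group, and the authors deposited whole-number counts of distinct UMIs per gene and library, with no normalization. Reads were aligned by the authors with STAR 2.7.9a to mm39 (GENCODE vM27), multimapped reads were discarded, exons were counted with featureCounts at its stated default settings, and UMI-tools 1.1.1 collapsed UMIs. At these defaults strand is ignored and a read that overlaps exons of several genes is not counted, so genes with an overlapping or antisense partner lose reads.

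CPM was computed from column totals, and RPKM from the deposited exon lengths, only where different genes were compared. Groups were compared with edgeR's quasi-likelihood test (edgeR 4.0.16, run in R 4.3.3), which used TMM scaling and Benjamini-Hochberg adjustment over all genes with a total count of at least 10 and a level worth a count of at least 3 in a library of median depth in as many libraries as the smallest group holds. The layer fit held 12 libraries and the amacrine fit 10. The standard error is the absolute fold change over the square root of F. The scripts were tested on simulated data. DESeq2 1.42.0, other scalings and filters, a replicate block, and leaving out each library were alternatives, and column totals were added after seeing the data.

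Libraries with one replicate number came from one section, so the numbers pair them. Residuals of the same section correlated at 0.0116 to 0.0493 in the layers and 0.0287 to 0.257 in the amacrine cells. The members and lists were chosen with earlier results of these data known. Full values are given for the 30 members with the smallest adjusted p between layers and for the 5 with the smallest p between amacrine groups, and also for Pcdhb18, chosen after its values were seen, and others are given by range or count. The symbol Pcdha11 did not match a single annotated gene, so it has no position. Tables of a mixed culture of human and mouse cells were not used, apart from the exon lengths in one of them. Some listed genes are not reported here, and the marker sums and list counts were computed without them.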

Additional observations from a re-analysis of the deposited data

Results flagged for a closer look

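Within each group of libraries, the highest and lowest value of each named member with a mean of at least 10 UMIs was compared with the other libraries by Dixon's ratio, and 4 values in 92 groups stood apart. Chance flags about 1 in 20 groups, so this number is no more than chance would give. Cdh22 had 27.3 CPM in replicate 4 of the GCL, where the other libraries had 14.99 to 16.6 CPM. Cdh4 had 50.2 CPM in replicate 3 of the ONL against 106 to 110 CPM in the others. Pcdh11x had 70.4 CPM in replicate 2 of the GCL against 94.3 to 99.0 CPM. Pcdhac2 had 52.9 CPM in replicate 4 of the GCL against 25.5 to 29.97 CPM.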

How the results depend on the processing

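Of the 114 member calls between layers, 86 were kept under every one of the 19 alternatives that tested them, 28 lost significance under at least one, and none changed direction. The default filter of edgeR did not test 29 of the 114 and kept the other 85. Leaving out replicate 2 of the ONL cost 15 calls, the most of any library. Without one library at a time, members higher in the BCL than in the ONL numbered 29 to 37, those higher in the GCL than in the ONL 46 to 51, and those higher in the GCL than in the BCL 17 to 19. Members higher in the BCL than in the GCL numbered 6 to 11, with 11 without replicate 1 of the GCL, and 12 with column totals, which cost 1 of the main calls (Pcdh1, log2 fold change -0.31). Members higher in TH+ cells numbered 0 to 1 without one library, 1 with RLE scaling and 1 with the replicate block. That gene was Cdh13, and the replicate block changed no other member call. The summed level was 1781 CPM in the ONL and 2772 CPM in the BCL with TMM library sizes, and 3273 CPM in the BCL and 4109 CPM in the GCL without mitochondrial genes. Counting only members with at least 3 UMIs, a library showed on average 44.75 in the ONL, 50.75 in the BCL, 73.25 in the GCL, 17.6 in TH+ and 47.8 in TH- cells. The cause of these shifts was not tested.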

Other observations

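Some members did not pass the filter on low counts. Cdh3 had 12 UMIs in the 4 ONL libraries together and 1 each in the BCL and the GCL, and Cdh17 had 8 UMIs in the BCL and 1 each in the ONL and the GCL. With no filter, edgeR called Cdh3 higher in the ONL than in the GCL (adjusted p = 0.00416), and it called Cdh17 higher in the BCL than in the ONL (adjusted p = 0.0103) or the GCL (adjusted p = 0.00396). In the same fit edgeR called Pcdha1, Pcdha5 and Pcdha9 higher in the GCL and Pcdhac1 higher in the BCL than in the ONL, at adjusted p of 0.00201 to 0.0377. Cdh23 had 3 UMIs in the TH+ and 1 in the TH- libraries.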
